A study of Mus musculus with 4 samples.

Results

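The regions described here are 1 kb tiles of the mouse genome, starting at multiples of 1000 bp on the mm10 build, in which CpG methylation in Tet/Tet embryonic stem cells (ESCs) exceeded that of R1 ESCs by 20 percentage points or more. A tile was tested where at least 5 CpG sites were listed in both ESC libraries, and its level in a library is the unweighted mean of the percent methylation of those sites. Of 103856 tested tiles, 5443 (5.24%) passed the rule and are called members, while 2759 (2.66%) were at least 20 points lower in Tet/Tet ESCs and are called lower tiles. The ESC levels chose the members, so those levels are given below as a description only.

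Reduced representation bisulfite sequencing (RRBS) had been performed on 4 cell populations with 1 library each, so no difference below has a replicate check and no test was possible. R1 is the wild-type mouse ESC line of the study, and Tet/Tet is a line made from it by inserting tet-off cassettes at both Dnmt1 alleles, behind the Dnmt1 promoter, which the study describes as overexpressing DNMT1 in ESCs and in neurons. ESCs of both lines were grown with LIF, Tet/Tet cells also with puromycin (1 µg/ml) and neomycin (150 µg/ml). Neurons of each line came from embryoid bodies formed for 2 days and then cultured for 10 to 15 days in a neural medium, and the labels name no marker or sort for them. Per the labels, ESC DNA was extracted with phenol and chloroform and neuron DNA with a column kit, while the study's methods describe the former for all samples. ESC and neuron libraries carry identifiers of different sequencing projects, so ESC against neuron differences cannot be told apart from differences between projects. Each genotype is represented by a single line, and a difference between R1 and Tet/Tet cannot be told apart from other differences between these cultures.

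DNMT1 is the maintenance methyltransferase, which copies CpG methylation onto the new DNA strand after replication, while DNMT3A and DNMT3B add methyl groups at unmethylated sites. Most CpGs of the mouse genome are methylated in differentiated cells, CpG islands at gene starts mostly are not, and imprinted genes carry methylation on the allele of a single parent. Germline genes often have promoters that are silenced by methylation when the embryo implants. RRBS cuts DNA with MspI at CCGG and so samples mostly CpG-rich sequence.

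On chromosomes 1 to 19, X and Y the R1 libraries listed 2310510 CpG sites (ESCs) and 5295489 (neurons), and the Tet/Tet libraries 2934962 and 3976676. All of these were CpGs of the reference sequence. The deposited values are percentages without read totals, so the depth behind each site is unknown. Tet/Tet neurons were not analysed here on chromosomes 8 and 9, on chromosome 7 beyond position 55762981 and on chromosome 10 before position 128096803, which left 1072 members without a value in that library.

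Windows of 300 bases from member tiles are printed to show what the sequences look like, with the CpGs listed in both ESC libraries in capitals. The first set holds intergenic windows from the members with the largest differences among those with at least 10 sites. All are on the plus strand of mm10 and mostly soft-masked, that is, marked as repeats in the reference.

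chr13:68427001-68427300: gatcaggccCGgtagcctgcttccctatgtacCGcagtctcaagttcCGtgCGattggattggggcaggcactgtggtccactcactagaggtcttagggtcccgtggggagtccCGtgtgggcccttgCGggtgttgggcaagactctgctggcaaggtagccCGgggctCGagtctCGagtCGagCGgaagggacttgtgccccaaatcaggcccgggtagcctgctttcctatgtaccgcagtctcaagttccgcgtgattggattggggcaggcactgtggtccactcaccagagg
chr8:47454148-47454447: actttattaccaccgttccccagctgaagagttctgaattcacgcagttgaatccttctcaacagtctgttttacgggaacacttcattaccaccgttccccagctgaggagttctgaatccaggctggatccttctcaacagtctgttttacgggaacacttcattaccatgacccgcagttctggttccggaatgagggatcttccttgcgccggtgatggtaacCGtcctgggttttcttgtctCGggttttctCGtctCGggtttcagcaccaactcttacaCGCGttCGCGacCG
chr16:68626324-68626623: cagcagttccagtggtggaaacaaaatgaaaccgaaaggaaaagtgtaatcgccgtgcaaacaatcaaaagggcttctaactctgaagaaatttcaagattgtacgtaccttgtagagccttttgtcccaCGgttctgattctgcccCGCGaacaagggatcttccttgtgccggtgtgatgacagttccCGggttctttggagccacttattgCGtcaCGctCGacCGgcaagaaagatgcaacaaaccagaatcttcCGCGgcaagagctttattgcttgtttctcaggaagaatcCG

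The window on chromosome 13 is fully soft-masked, and its 11 shared CpGs averaged 6.82% methylation in R1 and 65.2% in Tet/Tet ESCs. The window on chromosome 8, soft-masked over 92% of its bases, had 9 shared CpGs at 22.2% in R1 and 94.44% in Tet/Tet ESCs. In the window on chromosome 16, soft-masked over 94%, 11 shared CpGs averaged 27.3% and 81.3%, and each of them was higher in Tet/Tet ESCs. The windows on chromosomes 8 and 16 share a run of 14 identical bases, while the longest run that the chromosome 13 window shares with either of them is 8 bases.

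The second set holds the 300 bases directly upstream of 3 gene starts that lie in member tiles, chosen after their values were seen. Peg13 and Meg3 are imprinted noncoding RNA genes, and Taf7l encodes a TBP-associated factor of male germ cells. Peg13 and Taf7l are on the minus strand and Meg3 on the plus strand, and each sequence reads toward the gene.

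Peg13, chr15:72810325-72810624: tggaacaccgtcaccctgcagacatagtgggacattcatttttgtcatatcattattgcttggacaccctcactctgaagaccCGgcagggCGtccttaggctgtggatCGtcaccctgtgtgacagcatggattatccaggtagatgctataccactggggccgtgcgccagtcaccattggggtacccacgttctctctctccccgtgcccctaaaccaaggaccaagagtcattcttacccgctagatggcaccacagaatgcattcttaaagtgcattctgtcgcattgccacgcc
Meg3, chr12:109540701-109541000: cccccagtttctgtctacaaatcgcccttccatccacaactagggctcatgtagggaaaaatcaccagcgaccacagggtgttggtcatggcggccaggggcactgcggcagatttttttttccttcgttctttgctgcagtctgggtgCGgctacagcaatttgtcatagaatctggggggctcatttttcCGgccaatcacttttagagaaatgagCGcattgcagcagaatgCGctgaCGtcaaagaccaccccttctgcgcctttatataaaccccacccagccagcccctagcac
Taf7l, chrX:134476491-134476790: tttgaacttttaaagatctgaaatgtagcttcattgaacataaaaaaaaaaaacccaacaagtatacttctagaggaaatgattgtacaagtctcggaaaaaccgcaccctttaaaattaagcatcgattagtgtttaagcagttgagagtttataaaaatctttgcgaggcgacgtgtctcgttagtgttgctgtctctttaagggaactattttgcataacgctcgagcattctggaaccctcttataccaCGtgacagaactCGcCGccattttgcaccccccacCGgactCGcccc

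Only 3 of the 11 CpGs in the Peg13 window were listed in both ESC libraries, and they averaged 37.6% in R1 and 93.8% in Tet/Tet ESCs. The 5 shared CpGs of the Meg3 window averaged 12.9% and 56.5%, and the 5 of the Taf7l window 3.79% and 31.7%. Every one of these CpGs was higher in Tet/Tet ESCs. In R1 neurons the same sites averaged 74.0% at Peg13, 23.7% at Meg3 and 54.4% at Taf7l, against 24.8%, 17.1% and 4.19% in Tet/Tet neurons.

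Members had a median level of 34.0% (quartiles 20.2% and 46.4%) in R1 ESCs and 64.4% (51.2% and 76.0%) in Tet/Tet ESCs. Over all tested tiles these medians were 31.1% and 33.9%. The difference in members had a median of 26.2 points with quartiles of 22.4 and 33.3, so most members lay close to the threshold. In 2309 members (42.4%) it was below 25 points, in 1242 between 25 and 30, in 1571 between 30 and 50, and in 321 at least 50 points. At that last size, 0.309% of tested tiles were higher and 0.145% (151 tiles) lower in Tet/Tet ESCs. R1 ESCs were at 0% in 216 members, Tet/Tet ESCs were at 100% in 107, and 7 went from 0% to 100%.

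**Figure D1:**
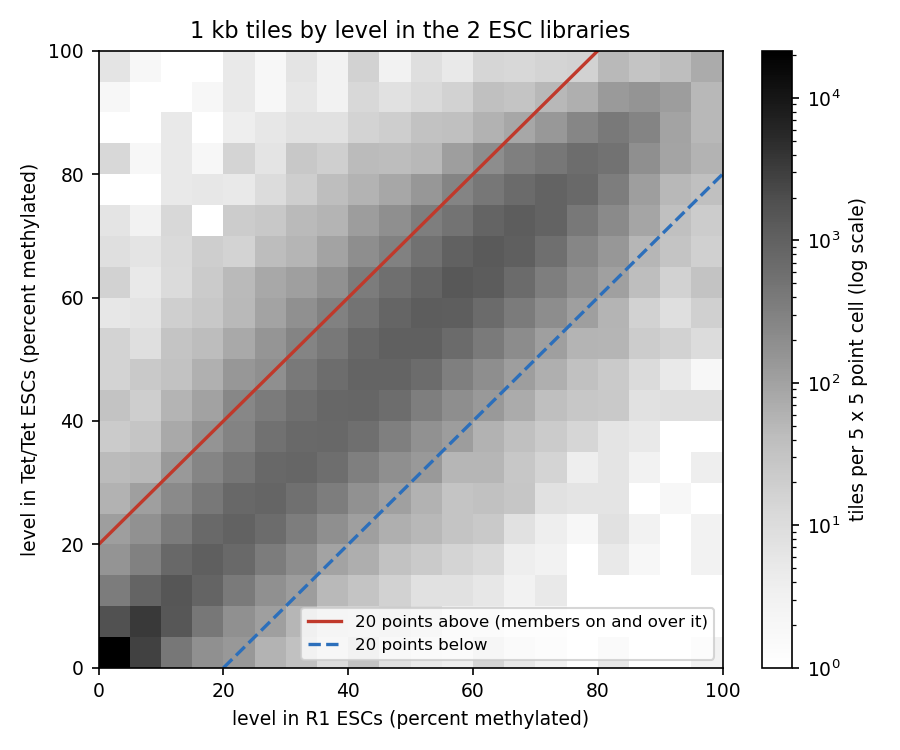
Each cell of the plot is a 5 by 5 point square of the level in R1 ESCs (x axis, percent) and in Tet/Tet ESCs (y axis, percent), shaded by the number of tested tiles on a log scale. The 5443 members lie on or above the solid red line and the 2759 lower tiles on or below the dashed blue line, with most of the 103856 tiles between the lines.

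The share of tiles that were members depended on the R1 level, which the rule itself limits to at most 80%. It was 1.41% among tiles under 5% methylated in R1 ESCs, 11.8% among tiles at 30% to 40%, and 0.777% among tiles at 70% to 80%. Tiles at 20% to 60% in R1 ESCs held 70.8% of the members and 39.1% of the tested tiles.

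Members rested on fewer sites than other tiles, with a median of 6 shared CpGs against 8 over all tested tiles. Exactly 5 shared sites were found in 2080 members (38.2%) and in 22.8% of tested tiles. Of tiles with 5 sites 8.77% were members, of tiles with 10 to 14 sites 3.50%, of tiles with 20 to 29 sites 0.445%, and of the 5336 tiles with 50 sites or more none. At least 10 sites were present in 660 members and at least 20 in 31. Lower tiles had the same order, since 5.25% of tiles with 5 sites and 0.205% of tiles with 20 to 29 sites were lower tiles. The part of site number in the choice of members was not tested.

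Within members, 29507 of 37530 shared sites (78.6%) were higher in Tet/Tet ESCs, 3889 (10.4%) were lower and 4134 were equal. Every shared site was higher in 1570 members (28.8%), while 2587 members held at least 1 site that was lower. The SD over sites of the difference within a tile had a median of 34.8 points in members and 10.2 points over all tested tiles, and a median of 30% of the site values in members were exactly 0% or 100%, against 16.7% over all tested tiles. In lower tiles these medians were higher still, at 40.7 points and 40% of the site values.

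MspI fragments of 40 to 220 bp are the size range that RRBS samples best. Of tiles with none of their shared sites inside such a fragment 12.1% were members, and of tiles with more than 50% but not all of them inside 2.48% were. Members outnumbered lower tiles by 1.64 to 1 in the former and by 3.09 to 1 in the latter. The part of fragment position in the result was not tested.

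A difference of exactly 20 points was found in 136 members. Of these, 3 were on chr1:99183001-99184000 (0% in R1 and 20% in Tet/Tet ESCs), chr5:129915001-129916000 (10% and 30%) and chr12:69960001-69961000, in Atl1 (50% and 70%). The 3 tested tiles just below the threshold were on chr1:118248001-118249000 (53.1% and 73.1%), chr1:16758001-16759000 (57% and 77.0%) and chrX:78212001-78213000 (39.3% and 59.3%).

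Sites that only a single ESC library listed played no part in the rule. They can share sequenced fragments with the sites that chose the tile, so their means are not independent of the rule. The sites of each library are also at different positions. Inside members, 3271 sites listed only in R1 ESCs averaged 42.8% and 7902 sites listed only in Tet/Tet ESCs averaged 57.5%. Over all tested tiles the order was the other way, 26.0% and 23.8%, and in lower tiles the means were 49.6% and 40.2%. The gap of 14.7 points inside members was smaller than the difference that chose them.

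By position, members were mostly outside genes' starts and outside islands. A start tile here is within 1 kb of any annotated gene start in GENCODE M21, taken as the outermost start of each gene. Of 28081 such tiles 584 (2.08%, exact 95% interval 1.92% to 2.25%) were members. The share was 5.96% (5.75% to 6.18%) of 46774 other tiles in genes and 7.14% (6.85% to 7.45%) of 29001 intergenic tiles. These intervals cover the counting of tiles only, not variation between cultures. Lower tiles had the same order, at 0.887%, 3.28% and 3.36%. Among the 22143 tiles at starts of protein-coding genes, 201 (0.908%) were members.

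CpG islands, called here from the sequence, overlapped 344 members (6.32%) and 26.2% of tested tiles. Inside islands 1.26% (1.13% to 1.40%) of tiles were members, within 2 kb of an island 4.03%, and farther away 6.94%. The shares of lower tiles were 0.834%, 2.41% and 3.40%. Island tiles differed by place, with members making up 0.349% of island tiles at gene starts, 1.85% of those in genes and 5.35% of intergenic ones. The 344 island members started from a lower level, with medians in R1 ESCs of 14.2% at gene starts, 27.6% in genes and 25% between genes.

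The shares by position lay closer together at a like level in R1 ESCs. Among tiles at 20% to 60% in R1 ESCs the share of members was 10.0% at gene starts, 8.80% in genes and 10.5% between genes, and 6.88% in islands against 9.66% outside them. Lower tiles in the same range made up 5.79% of island tiles and 2.76% of others.

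**Figure D2:**
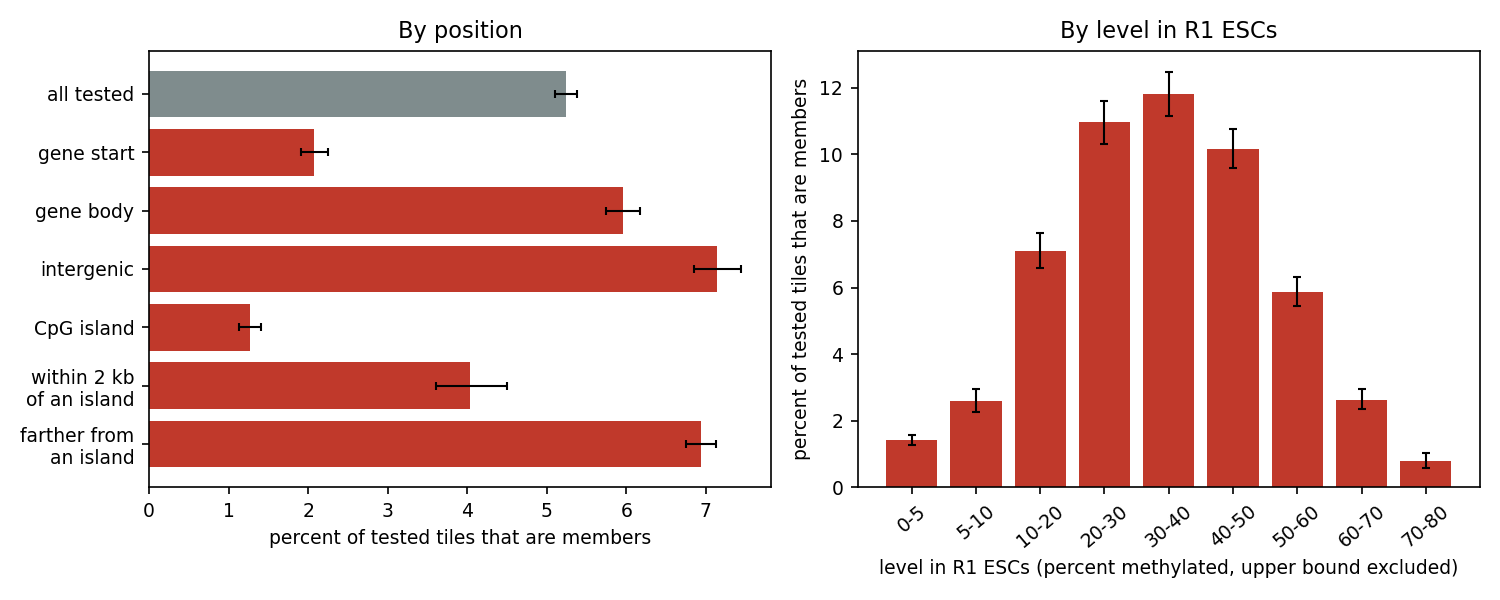
Left, the percent of tested tiles that are members (x axis) for tiles at gene starts, in gene bodies and between genes, and by distance to a CpG island; right, the same percent (y axis) by level in R1 ESCs (x axis, percent). Bars start at 0, error bars are exact 95% intervals of counting, the grey bar is the 5.24% of all tested tiles, and the tallest bar on the right is 11.8% at 30% to 40%.

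Distance to protein-coding starts told the same order in finer steps. Members made up 0.757% of tiles centred within 1 kb of such a start, 5.41% at 5 to 20 kb, 8.21% at 100 to 500 kb and 9.57% beyond 500 kb. Lower tiles levelled off earlier, at 3.32%, 3.18% and 3.10% in the last 3 of these ranges. Members were a median of 41287 bp from the nearest protein-coding start, against 18293 bp over all tested tiles.

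Soft-masked sequence made up a median of 20.8% of member tiles and 14.3% of all tested tiles. Under 10% masked, 3.90% of tiles were members, and at 75% or more 8.18%, while lower tiles made up 1.92% and 3.79%. The GC content of members had a median of 48.1% (50.6% over all tested tiles), and members held a median of 18 CpGs in their sequence (22). Lower tiles had nearly the same medians, with 21.3% masked, 48.8% GC and 18 CpGs.

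The hexamer TGCCGC, the core of the motif bound by ZFP57, which protects methylation at imprinting control regions, was searched on both strands of each tile. It was present in 958 members (17.6%), in 412 lower tiles (14.9%), in 23.4% of all tested tiles and in 5.50% of all 1 kb tiles of these chromosomes.

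Every chromosome held members, from 4.21% of tested tiles on chromosome 17 to 6.80% on chromosome 14. The X chromosome had 187 members (6.47%) and the autosomes 5.20%, and the Y chromosome had 21 of 319 tiles (6.58%, exact 95% interval 4.12% to 9.89%). Among tiles at 20% to 60% in R1 ESCs the share was 12.4% (10.5% to 14.5%) on X and 9.41% (9.12% to 9.70%) on autosomes. Lower tiles in this range were also more frequent on X, at 3.72% against 2.93% on autosomes. Members per lower tile were thus close, at 3.33 on X and 3.21 on autosomes.

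Along chromosomes, most members had no other member within 5 kb. Only 1218 of the 5443 members had a directly adjoining tested tile, which limits how many could be joined. The share standing alone is given without a comparison to other tiles. With members no more than 5 kb apart joined, 5107 (93.8%) stood alone and 336 formed 164 clusters, of which 7 held at least 3 members and the largest held 4. Of 2643 windows of 1 Mb with a tested tile 2046 held a member, with a median of 2. Among the 684 windows with at least 50 tested tiles the share of members ranged from 0% to 19.6% with a median of 4%. The highest was chr8:118000001-119000000 with 10 members among 51 tiles, which overlaps Cdh13, a cadherin gene.

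Directly adjoining tiles were more alike than distant ones. Of 1218 members with a tested tile next to them, 168 (13.8%) adjoined another member, while 3.14% of 41748 tested tiles with a tested neighbour did. Lower tiles adjoined lower tiles in 7.14% of 672 cases and members adjoined lower tiles in 2.22%, against 1.76% of tested tiles with a tested neighbour. At a distance of 1 kb from a member 12.9% of tested tiles were members, against 2.73% at 1 kb from any tested tile. At 2 kb these shares were 5.69% and 3.29%, at 10 kb 3.96% and 3.73%, and at 50 kb 5.53% and 4.21%. The mean difference between the ESC lines was 5.71 points at 1 kb from a member, 1.88 points at 2 kb and between 1.31 and 2.42 points from 3 to 100 kb. Around any tested tile it was 0.739 points at 1 kb, 0.599 at 2 kb and 0.826 at 100 kb.

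Neighbouring tiles with too few sites for the rule gave a measure that the rule did not use. The 2454 tiles with 1 to 4 shared sites next to a member were on average 6.05 points higher in Tet/Tet ESCs, against 1.59 points next to any tested tile and -1.07 points next to a lower tile. Of those next to members, 55.9% were higher and 33.8% lower. Adjoining tiles can share sequenced fragments, so they are not independent of the members.

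**Figure D3:**
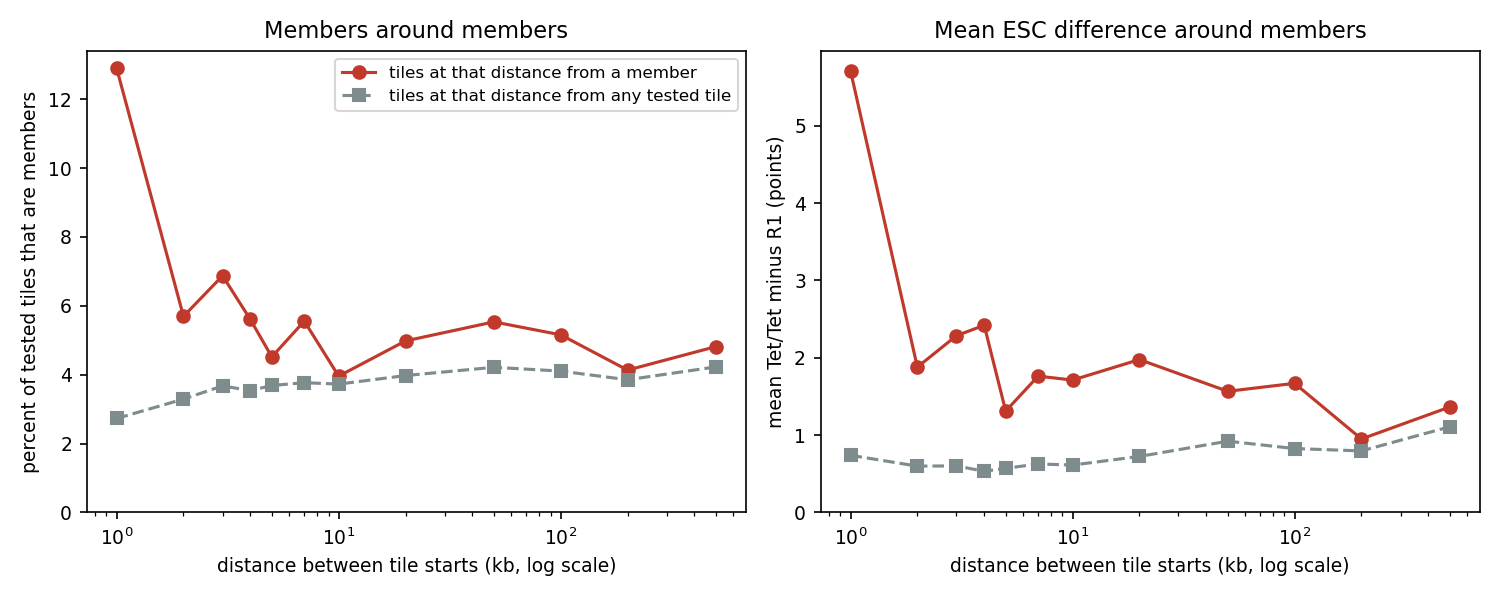
Both panels have the distance between tile starts on the x axis (kb, log scale). The left panel gives the percent of tested tiles that are members and the right the mean Tet/Tet minus R1 difference in ESCs (points), around members (red, solid) and around any tested tile (grey, dashed). Both red lines are highest at 1 kb, at 12.9% and 5.71 points, and lower from 2 kb on.

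The largest cluster lay in Mest, an imprinted gene of the hydrolase fold family that is expressed from the paternal allele. Mest held 5 tested tiles, of which 4 were members, at chr6:30735001-30743000. The first had 11 sites at 6.78% in R1 and 73.5% in Tet/Tet ESCs, with 10 of them higher. The second overlaps an island and had 23 sites at 0.543% and 54.2%, with 21 higher. The third had 5 sites at 10.1% and 56.9%, and the fourth 10 sites at 23.3% and 54.7%. In R1 neurons these tiles were at 41.1%, 27.1%, 51.1% and 95.8%, and in Tet/Tet neurons at 6.08%, 20.3%, 15.2% and 10.2%. The first 3 stood below nearly all members in R1 neurons, where the lower quartile of members was 88.9%.

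The next clusters held 3 members each. Reep2 encodes a protein that shapes the endoplasmic reticulum, and in this gene and just beyond it means were 28.0% in R1 and 72.7% in Tet/Tet ESCs. The cluster in Trim3, a gene for a brain-expressed ubiquitin ligase, went from 29% to 73.5%, and that in Hs6st3, a heparan sulfate sulfotransferase gene, from 32.0% to 67.3%. In Plcg2, the phospholipase C gamma 2 gene, 3 adjoining tiles with 31 sites in all went from 41.3% to 69.0%. All of these clusters averaged between 94.0% and 98.0% in R1 neurons. No tested tile within these 5 clusters failed the rule.

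Among members with at least 10 sites, the 10 with the largest differences were of mixed position. Chromosome 18 was left out of this ranking, and none of its 23 members of that kind had a larger difference than the last of these. The first was intergenic at chr7:56690001-56691000, near Gabrg3, fully soft-masked, with 10 sites at 30% in R1 and 98% in Tet/Tet ESCs. The next, chr8:47513001-47514000, overlaps an exon of Trappc11, a gene of the TRAPP vesicle tethering complex, and had 10 sites at 3.33% and 70.8%. Both Mest tiles with the largest differences are among them, at ranks 3 and 10. The tiles of the printed repeat windows had ranks 4 to 6. They were at 6.25% and 68.1% on chromosome 13, 31.1% and 91.9% on chromosome 8 and 26.7% and 86.3% on chromosome 16. Their nearest protein-coding genes were Mtrr at 133279 bp, Stox2 at 8138 bp and Cadm2 at 1005592 bp, respectively. With sites in all 4 libraries the difference in the chromosome 13 tile was 34.5 points in place of 61.8.

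The others were in genes. In Pdzrn3, which encodes a PDZ-domain ubiquitin ligase, an island tile at chr6:101150001-101151000 had 14 sites at 14.3% and 71.4%, with an SD over sites of the difference of 55.0 points. At the start of Ensa, an inhibitor of the phosphatase PP2A, the tile chr3:95625001-95626000 had 18 sites at 7.10% and 62.5%, of which 12 were higher and 4 lower. When restricted to the sites that all 4 libraries listed, this tile no longer differed in that direction, with a difference of -0.347 points. In A230004M16Rik, a noncoding transcript, an island tile had 13 sites at 30.8% and 84.6%.

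Of 16740 protein-coding genes with a tested tile, 2304 (13.8%) held at least 1 member, 1894 of them exactly 1. Long genes with many tested tiles head the list. Gm20388, a gene model annotated over chr8:119910841-124345722, held 39 members among 853 tiles and 25 lower tiles. Fgfr2, a fibroblast growth factor receptor gene annotated here over chr7:130162451-133123350, held 12 members and 12 lower tiles among 179. Tiles were counted by overlap with the annotated span, so tiles of other genes inside such a span count too. Zfhx3, a homeodomain transcription factor, held 11 members and 2 lower tiles among 97, with members averaging 32.6% in R1 and 59.0% in Tet/Tet ESCs and all tiles 45.4% and 50.6%. Cdh13 held 8 among 59 and Wwox, an oxidoreductase gene, 7 among 85.

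The next genes by number of members had fewer tested tiles. Members numbered 5 of 19 tiles in Dgkh, a diacylglycerol kinase (26.5% in R1 and 71.5% in Tet/Tet ESCs), and 6 of 26 in Hs6st3 (38.6% and 71.9%). They were 5 of 22 in Rbm20, a splicing regulator, 5 of 24 in Prkca, protein kinase C alpha, and 6 of 32 in Sox5, a SOX transcription factor. Of these 5 genes only Rbm20 held a lower tile, 1. The genes were chosen by their number of members, so these shares describe them and support nothing further.

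At starts of protein-coding genes, 205 of 14454 genes (1.42%) had a member and 125 (0.865%) a lower tile. The largest differences there were at Gm10378 (10% in R1 and 80% in Tet/Tet ESCs, 5 sites), Ppp2r5d, a PP2A regulatory subunit (14.3% and 83.3%, 7 sites), and Slc10a1, a bile acid transporter of liver (10.4% and 76.4%, 8 sites, all higher). Gm11985 (11.1% and 75.1%) and the cytokine receptor gene Il31ra (15.5% and 78.2%) followed. After Ensa came Kif3c, a kinesin (0% and 50%, 3 of 5 sites higher), Xdh, xanthine dehydrogenase (38.9% and 88.3%), Cbx7, a Polycomb subunit (15.1% and 63.7%, 9 of 9 sites higher), and Slc46a2, a solute carrier (8.05% and 53.2%, 9 of 9 higher). None of these 10 start tiles overlapped an island. In R1 neurons they stood between 82.9% and 100% apart from Ensa at 18.3% and Kif3c, which had too few sites. The Ensa value rests on 8 of its 18 sites. Its sites at 0% in R1 and 100% in Tet/Tet ESCs had no value in R1 neurons.

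Dnmt1 itself, the altered gene, held no member. Of its 13 tested tiles 1 was a lower tile, at chr9:20943001-20944000 (45.0% in R1 and 17.2% in Tet/Tet ESCs). In that tile 5 of 8 sites were higher and 3 lower, with an SD over sites of the difference of 60.3 points. The Dnmt1 tile at the outermost annotated start had 5 sites at 27.5% and 35.0%. The tile with the most sites, chr9:20952001-20953000, overlaps an island. It had 38 sites at 2.06% and 7.11%, of which 32 were higher and 5 lower. The 13 tiles averaged 45.7% in R1 and 38.6% in Tet/Tet ESCs, and the gene lies in the part of the genome not analysed here in Tet/Tet neurons.

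Of 58 imprinted genes with a tested tile 16 (27.6%) held a member and 5 (8.62%) a lower tile, against 13.8% and 8.51% of protein-coding genes. Of their 253 tiles 24 (9.49%) were members, against 5.24% of all tested tiles. Genes that lie inside others share tiles in the count of genes. The 2 members of Peg13 thus also count for Trappc9, and the 2 of Zrsr1 for Commd1. At gene starts, 5 of 48 (10.4%) had a member, against 2.86% of annotated genes of any type. A lower tile was found at the start of 2 of these 48, against 0.865% of protein-coding genes. The median difference over the 253 tiles was 0.601 points, against 0.530 points for all tested tiles. At Peg13, transcribed from within an intron of Trappc9, the tile chr15:72810001-72811000 overlaps an island and had 19 sites at 37.5% in R1 and 79.6% in Tet/Tet ESCs, all of them higher. The tile directly before Meg3, a noncoding RNA expressed from the maternal allele, had 15 sites at 20.03% and 57.1%, again all higher.

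Lower down were Fkbp6 (35.7% and 64.3%), a gene needed for meiosis, and H19, a maternally expressed noncoding RNA gene (45.8% and 70.8%, 8 of 10 sites higher). Zrsr1, which lies in an intron of Commd1 and is expressed from the paternal allele, had 7 sites at 10.8% and 34.6%, all higher, in an island tile. In R1 neurons these tiles were at 82.2% for Peg13, 49.4% for Meg3, 91.9% for Fkbp6, 73.9% for H19 and 26.6% for Zrsr1. In Tet/Tet neurons they were at 24.3%, 21.1%, 17.3% and 11.9% for Peg13, Meg3, Fkbp6 and Zrsr1. Igf2, Rtl1, Cdh15 and Mest were among the imprinted genes with at least 2 members but none at their outermost annotated start. Igf2 held 2 members among 11 tiles, while Mest, Rtl1 and Cdh15 had no tested tile at that start. Starts of inner transcripts were not considered, so whether the Mest members lie at such a start was not looked at.

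Of 40 germline genes with a tested tile 6 (15%) held a member and 4 (10%) a lower tile, against 13.8% and 8.51% of protein-coding genes. At gene starts 6 of 36 (16.7%) had a member and none a lower tile, against 1.42% and 0.865%. Of the 107 tiles of germline genes 6 (5.61%) were members, against 5.24% of all tested tiles, and the median difference was 1.96 points. The start tiles were of Figla, an oocyte transcription factor (27.1% in R1 and 56.9% in Tet/Tet ESCs), Slc25a31, a mitochondrial carrier of sperm (17.9% and 42.0%), and Brdt, a testis bromodomain protein (49% and 72.5%). Tex19.1, which restrains retrotransposons in germ cells (2.22% and 25%), Taf7l (24.3% and 47.0%) and Rhox6, a reproductive homeobox gene on X (5.24% and 26.4%), followed. At Slc25a31 20 of 21 sites were higher and at Taf7l 24 of 24, and both tiles overlap an island, with 79.2% of the Taf7l sites inside MspI fragments. In R1 neurons the 6 tiles ranged from 85.0% at Taf7l to 100% at Tex19.1, and in Tet/Tet neurons from 5.93% at Tex19.1 to 35.8% at Brdt.

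Of 28 pluripotency genes 3 (10.7%) held a member and 3 (10.7%) a lower tile, against 13.8% and 8.51% of protein-coding genes. At gene starts none of 24 had a member, against 1.42% of protein-coding genes. Of the 123 tiles of pluripotency genes 3 (2.44%) were members, against 5.24% of all tested tiles, and the median difference was -0.324 points. Klf4, a reprogramming transcription factor, had a member tile at 0% and 23.3%. Of 21 genes for enzymes and partners of DNA methylation 3 (14.3%) held a member and 5 (23.8%) a lower tile, against the same 13.8% and 8.51%. At gene starts none of 15 had a member, against 1.42%. Of the 124 tiles of these enzymes and partners 3 (2.42%) were members, and the median difference was -0.351 points. Dnmt3b, a de novo methyltransferase, held 1 member and 3 lower tiles among 8.

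Of 46 neuronal genes 9 (19.6%) held a member and 6 (13.04%) a lower tile, against 13.8% and 8.51% of protein-coding genes. Of the 333 tiles of neuronal genes 13 (3.90%) were members, against 5.24% of all tested tiles, and the median difference was 0.409 points. At gene starts 1 of 44 (2.27%) had a member, against 1.42%. That gene was Stmn2, a microtubule regulator of neurons, whose 3 tested tiles were all members. The tile at its start had 12 sites at 1.76% in R1 and 22.3% in Tet/Tet ESCs, 11 of them higher, and stood at 2.21% in R1 and 5.42% in Tet/Tet neurons. The lists were drawn up with earlier results of these data known, and their counts are a description.

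**Figure D4:**
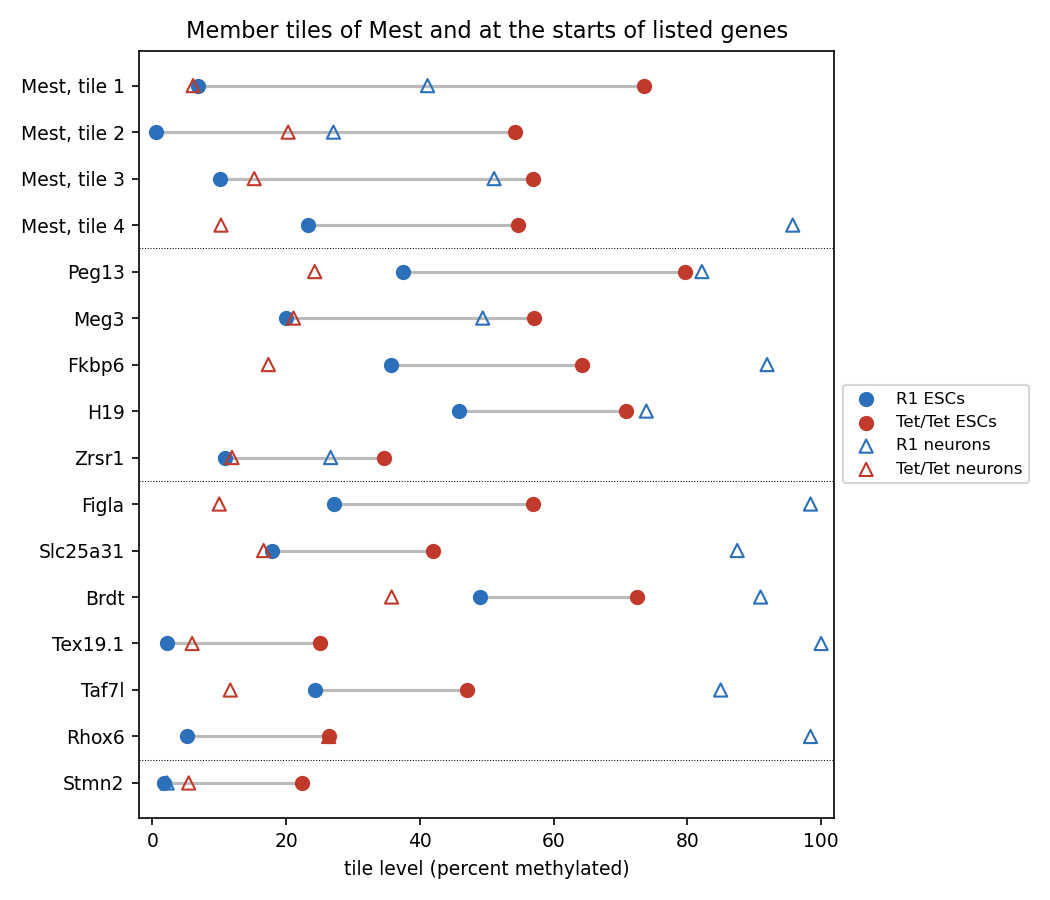
Tile level (x axis, percent methylated) of the 4 member tiles of Mest and of the member tile at the start of each listed gene, with ESCs as filled circles joined by a line and neurons as open triangles, R1 in blue and Tet/Tet in red. Dotted lines part Mest, imprinted, germline and neuronal genes. In R1 neurons the germline tiles stand at 85.0% or more. Stmn2 (2.21%), Zrsr1 (26.6%), Meg3 (49.4%), H19 (73.9%), Peg13 (82.2%) and 3 Mest tiles lie lower there. H19 has no value in Tet/Tet neurons.

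The neuron libraries were not used to choose the members. In R1 neurons members had a median of 93.9% (quartiles 88.9% and 96.6%, n = 5032 tiles), against 89.0% over all tested tiles and 93.1% in lower tiles. In Tet/Tet neurons the medians were 17% (11.2% and 23.7%, n = 3992), 13.3% and 15.2%. Members, highest in Tet/Tet among ESCs, were thus far lower in Tet/Tet than in R1 among neurons.

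Tet/Tet neurons were at least 20 points below R1 neurons in 3755 of 3792 members (99.0%), against 76.5% of all tested tiles and 98.0% of lower tiles. The median difference in members was -74.4 points (quartiles -80.6 and -66.7), over all tested tiles -68.5 and in lower tiles -74.2. In the opposite direction, Tet/Tet neurons were at least 20 points above R1 neurons in 1 member, against 0.0125% of tested tiles. The neuron difference of members therefore lay near that of lower tiles, whose ESC difference has the other sign.

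At like levels in R1 ESCs of 20% or more, members and other tiles stood close together in both neuron libraries. Among tiles at 20% to 40% in R1 ESCs, members had medians of 93.7% in R1 and 16.8% in Tet/Tet neurons, and other tiles 91.0% and 15.8%. At 40% to 60% members were at 94.5% and 18.1% and others at 92.9% and 16.8%. Below 20% the groups parted in R1 neurons, at 91.8% for members and 13.8% for other tiles, and in Tet/Tet neurons at 14.3% and 3.90%. Their R1 ESC levels were not alike within this range. Members made up 1.41% of tiles under 5% and 7.10% of tiles at 10% to 20%.

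Between cell types, R1 neurons were at least 20 points above R1 ESCs in 4940 of 5032 members (98.2%), against 68.2% of all tested tiles, and below R1 ESCs in 12 (0.238%, against 4.4%). They were at 80% or more in 4502 members (89.5%, against 62.7% of all tested tiles and 85.2% of lower tiles). The level in Tet/Tet ESCs lay between R1 ESCs and R1 neurons in 4753 members (94.5%, against 53.7%) and above R1 neurons in 230 (4.57%, against 5.95%). The R1 ESC level stands on both sides of these comparisons and was part of the rule, so they describe the members only. Tet/Tet neurons were below R1 ESCs in 3178 of 3992 members (79.6%, against 74.4%) and at least 20 points below Tet/Tet ESCs in 3614 (90.5%, against 46.6%). At 50% or more in Tet/Tet neurons were 71 members (1.78%, against 0.641% of all tested tiles and 2.35% of lower tiles). Such members include the start tile of Il31ra at 66.7% and the Klf4 tile at 58%.

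By position, members kept these levels. In R1 neurons their median was 91.7% in intergenic islands, 93.2% in islands of genes and 90.9% in islands at gene starts, where all tested tiles were at 84.7%, 25.4% and 3.79%. The R1 ESC medians in these islands differed too, at 25%, 27.6% and 14.2% in members and 23.8%, 5.14% and 2.15% over all tested tiles. Outside islands members were between 93.2% and 94.5% in all of these places. In Tet/Tet neurons the medians of members lay between 16.1% and 20% in every combination of position and island.

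**Figure D5:**
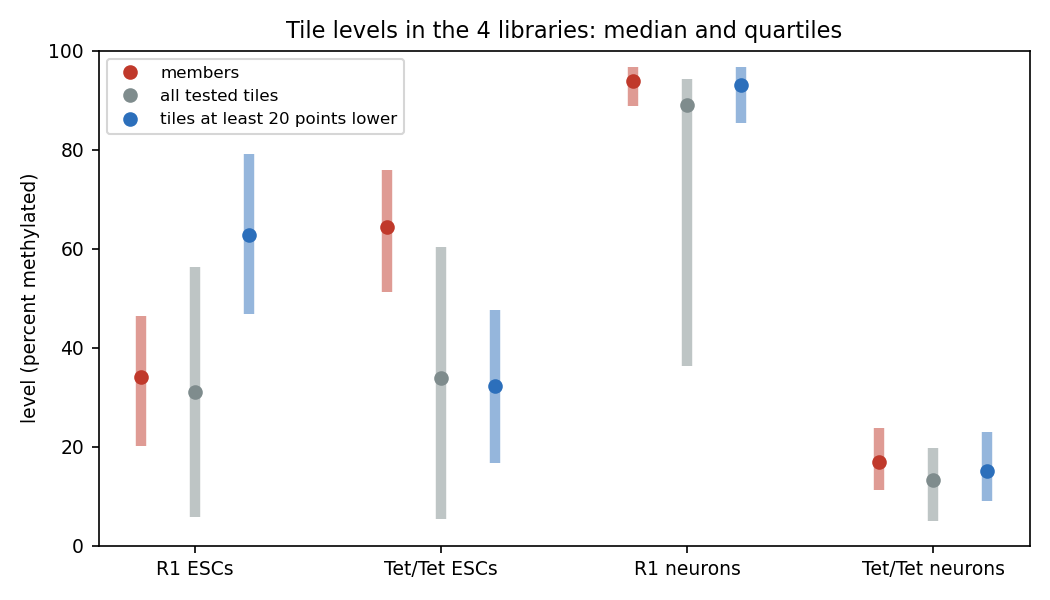
Level (y axis, percent methylated) in the 4 libraries (x axis) for members (red), all tested tiles (grey) and lower tiles (blue), with the median as a point and the quartiles as a bar. Members rise from 34.0% to 64.4% between the ESC libraries by the rule, and stand at 93.9% in R1 and 17% in Tet/Tet neurons.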

How the data were processed

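RRBS libraries of R1 and Tet/Tet ESCs and neurons were analysed, with 1 library per condition. The authors trimmed the reads with Trim Galore 0.6.4, checked them with FastQC 0.11.8, mapped them to mm10 with Bismark 0.19.0 and called CpGs with MethylDackel 0.3.0 (versions also in the submitters' processing notes). The authors deposited, for each CpG, the percent of its reads that kept a cytosine, without read totals and not normalized between libraries, so depth and counting error per site are unknown and the study's Fisher's exact test could not be applied.

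From these values, tile levels were computed in Python 3.11.15 with numpy 2.4.6, numba 0.67.0, pandas 2.3.3 and scipy 1.17.1, and figures were drawn with matplotlib 3.10.9. A tile had to have at least 5 CpGs listed in both ESC libraries, its level was their unweighted mean, and a neuron level needed at least 5 of the same sites. A tolerance of 1e-06 points at the threshold of 20 points allowed for rounding. CpG islands (above 200 bp, at least 50% GC, observed over expected CpG above 0.6, 23933 found) and MspI fragments of 40 to 220 bp were located on the GRCm38 (mm10) sequence of RefSeq, and genes were those of GENCODE M21. Sequences printed are from the same assembly. The tile, neighbour, overlap and island steps were tested on simulated data.

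The members and the gene lists were chosen with earlier results of these data known. Tiles named were the 10 members with the largest difference among those with at least 10 sites, outside chromosome 18, with 3 tiles on either side of the threshold. Also named were the 5 clusters with most members, the 10 protein-coding genes with most members, the 10 with the largest difference at the start, up to 6 genes per list with a member at the start, and Dnmt1. Other genes of the lists were named after their values were seen. Sequence windows were to come from the named tiles in no exon, and the first of these was not printed. Alternatives were at least 10 sites, differences of 10 or 30 points, sites in MspI fragments, sites in all 4 libraries, tiles shifted by 500 bp, and the median over sites. Intervals are exact 95% binomial intervals over tiles. Sites on other sequences than chromosomes 1 to 19, X and Y were left out.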

Additional observations from a re-analysis of the deposited data

Results flagged for a closer look

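By their choice, the members had Tet/Tet above R1 by at least 20 points among ESCs, while among neurons the median difference between Tet/Tet and R1 was -74.4 points over 3792 members, of which 3784 were lower and 7 higher in Tet/Tet. The opposite direction in the 2 cell types drew attention to it. It was not tested, as each cell type has 1 library per line. All tested tiles had a median of -68.5 points in neurons, and tiles lower in Tet/Tet ESCs had -74.2 points.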

How the results depend on the processing

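With at least 10 sites per tile 660 tiles (1.72% of those tested) were members, of which 18.6% overlapped an island and 18.2% lay at a gene start (59.3% and 51.4% of tested tiles), 19.3% of those with a tested neighbour adjoined a member, and medians were 93.5% in R1 and 19.19% in Tet/Tet neurons. With MspI sites alone these values were 1023 tiles (2.04%), 17%, 14.6% (46.7% and 40.9% of tested tiles), 23.9%, 93.1% and 18.5%. At 30 points they were 1892 tiles (1.82%), 7.19%, 9.20%, 7.21%, 94.6% and 16.3%, and at 10 points 16861 tiles (16.2%), with 28.5% adjoining and a median of 93.4% in R1 neurons. Sites in all 4 libraries gave 5.69% in islands, tiles shifted by 500 bp 11.8% adjoining, and the median over sites 16.2% adjoining, 96.4% in R1 and 15.4% in Tet/Tet neurons. Over all tested tiles, 3.14% of those with a tested neighbour adjoined a member as reported, and under these alternatives 0.505% (10 sites), 0.707% (MspI), 1.06% (30 points), 10.1% (10 points), 3.02% (shifted) and 3.65% (median). The remaining values moved by less than their counting interval, or, for the number of members, by under 1.5 times. The site and difference minimums change the numbers of members by their construction, and the cause of the other shifts was not tested.

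Of the 10 named tiles, the start tile of Ensa changed direction with sites in all 4 libraries (-0.347 points), as fewer of its sites enter. The other 6 that could be computed there kept their direction, with that on chromosome 13 at 34.5 in place of 61.8 points. With the median over sites all 10 kept their direction (50 to 100 points). No paired analysis was possible because each condition has 1 library and no test was run. The unknown depth limits every value.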
